A study of Mus musculus with 4 samples.

Results

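The Ugt1a genes of the mouse are 9 genes on chromosome 1 that each begin with their own first exon and end in the same downstream exons. They were taken as the rows of the deposited mm10 annotation on chromosome 1 whose name starts with Ugt1a and a digit, which gave 9 rows for 9 symbols out of 50703 rows for 26161 symbols outside the rDNA contig. The series profiled RNA polymerase I by CUT&Tag, which inserts sequencing adapters next to an antibody-bound protein, in C64 mouse embryonic stem cells. The groups were 2 control libraries, for which no auxin dose or time is listed, and 2 libraries from cells given 500 nM auxin for 6 h. The labels used here name no degron-tagged protein and no genotype, so what the C64 cells carry in both groups is not given. Auxin is a plant hormone used in animal cells to trigger the degradation of proteins that carry an auxin-inducible degron. The file analysed holds the annotation over which such data can be summarised, and no column belongs to a library. Depth and occupancy of the 4 libraries were not analysed here, so no comparison of auxin with control is made, the labelled cell type was not checked against marker genes, and the coordinates below carry no replicate error.

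UDP-glucuronosyltransferases are membrane enzymes of the endoplasmic reticulum that attach glucuronic acid to small molecules and so make them soluble enough to be excreted. The Ugt1a enzymes are known from liver, intestine and kidney, where Ugt1a1 conjugates bilirubin and others conjugate phenols, drugs and plant compounds. The amino-terminal part of each enzyme, which binds the substrate, is encoded by an exon of its own upstream, and the carboxy-terminal part, which binds UDP-glucuronic acid and holds the membrane anchor, is encoded by the common exons. Each first exon has a promoter of its own, and its transcript is spliced to the common exons past the first exons that lie between them.

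Every member starts at a base of its own, so each has its own sequence just before the start. RefSeq (GRCm38.p6) gave a promoter sequence for 8 of the 9 members, all but Ugt1a6b, and the 250 bases before each start were compared. The pair of neighbours Ugt1a10 and Ugt1a9 shared an identical run of 32 bases. In the sequences of these 2 genes, which cover the 150 bases before the start on the plus strand (chr1:88055261-88055410 and chr1:88070629-88070778), the capitals mark that run.
Ugt1a10: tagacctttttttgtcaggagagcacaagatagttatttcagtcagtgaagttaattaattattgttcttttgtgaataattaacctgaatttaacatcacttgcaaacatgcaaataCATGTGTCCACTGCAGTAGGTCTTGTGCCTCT
Ugt1a9: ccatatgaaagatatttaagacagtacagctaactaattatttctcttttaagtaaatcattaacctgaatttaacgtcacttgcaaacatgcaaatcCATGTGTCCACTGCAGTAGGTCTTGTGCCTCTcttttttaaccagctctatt
The run ended at the base before the start of Ugt1a10, the last base compared, and at the base 21 before that of Ugt1a9. Bases past the start of Ugt1a10 were not compared, so 32 bases is the length within the compared windows only. The likeness of the 2 sequences is longer than this exact run. Before the capitals, from the letters attaacctgaatttaac onward, they differ only at single bases. In the other 27 pairs the longest identical run was 11 bases at most, and the median over all 28 pairs was 8 bases. Ugt1a8 and Ugt1a7c, which also lie next to each other, shared 10 bases at most. These runs are a description of the letters, and no chance level was computed for them.

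The letters GTTAAT, the core of the site bound by the liver-enriched factor HNF1, were searched for on both strands of the same 250 bases. They were found upstream of 4 of 8 members, namely Ugt1a10, Ugt1a9, Ugt1a6a and Ugt1a1, and in 6.43% of all 32851 promoter windows of that length. The sequences of Ugt1a6a (chr1:88134659-88134808) and Ugt1a1 (chr1:88211809-88211958), both 150 bases on the plus strand, are shown as the further members with a match, which capitals mark.
Ugt1a6a: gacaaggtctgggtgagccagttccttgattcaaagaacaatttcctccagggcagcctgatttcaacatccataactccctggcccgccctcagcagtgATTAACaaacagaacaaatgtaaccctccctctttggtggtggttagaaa
Ugt1a1: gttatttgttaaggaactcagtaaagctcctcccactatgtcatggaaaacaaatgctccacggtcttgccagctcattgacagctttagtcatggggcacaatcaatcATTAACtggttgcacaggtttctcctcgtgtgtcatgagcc
In Ugt1a1 the match began at -41, where -1 is the base before the start, and in Ugt1a6a at -50, both read on the opposite strand. Ugt1a9 had a match at -91. Ugt1a10 had a match on each strand, at -100 and at -71. The match at -71 and that of Ugt1a9 are the same letters of the stretch that is alike in both genes. The 4 members with a match are therefore not 4 separate cases. The full HNF1 palindrome, which is that core, any base and the reverse complement of the core, was in none of the 8 windows and in 3 of the 32851. GCGTG, the core of the xenobiotic response element bound by the aryl hydrocarbon receptor, was found upstream of 2 members, Ugt1a8 at -70 and Ugt1a5 at -49, and in 28.2% of all windows. TATAAA, a form of the TATA box, was in none of the 8 windows and in 12.4% of all windows. A match is only a match of letters, and binding was not measured in these data. These motifs were chosen after the sequences had been seen.

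The 9 genes lie on the plus strand and together span 164592 bases, from 88055411 to 88220002 of chromosome 1 (mm10). In the direction of transcription the order of starts was Ugt1a10, Ugt1a9, Ugt1a8, Ugt1a7c, Ugt1a6b, Ugt1a6a, Ugt1a5, Ugt1a2 and Ugt1a1. Each had 1 row, and all 9 starts and ends equalled those of the same gene in the RefSeq table. Ugt1a10 (gene ID 394430) had the longest span of the 9, 164592 bases, and Ugt1a1 (gene ID 394436) the shortest, 8044 bases, from 88211959 to 88220002. The median span was 115742 bases, that of Ugt1a6b. Exons made up 1.68% of the span in Ugt1a8 and 40.1% in Ugt1a1, and the median was 2.64%.

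**Figure D1:**
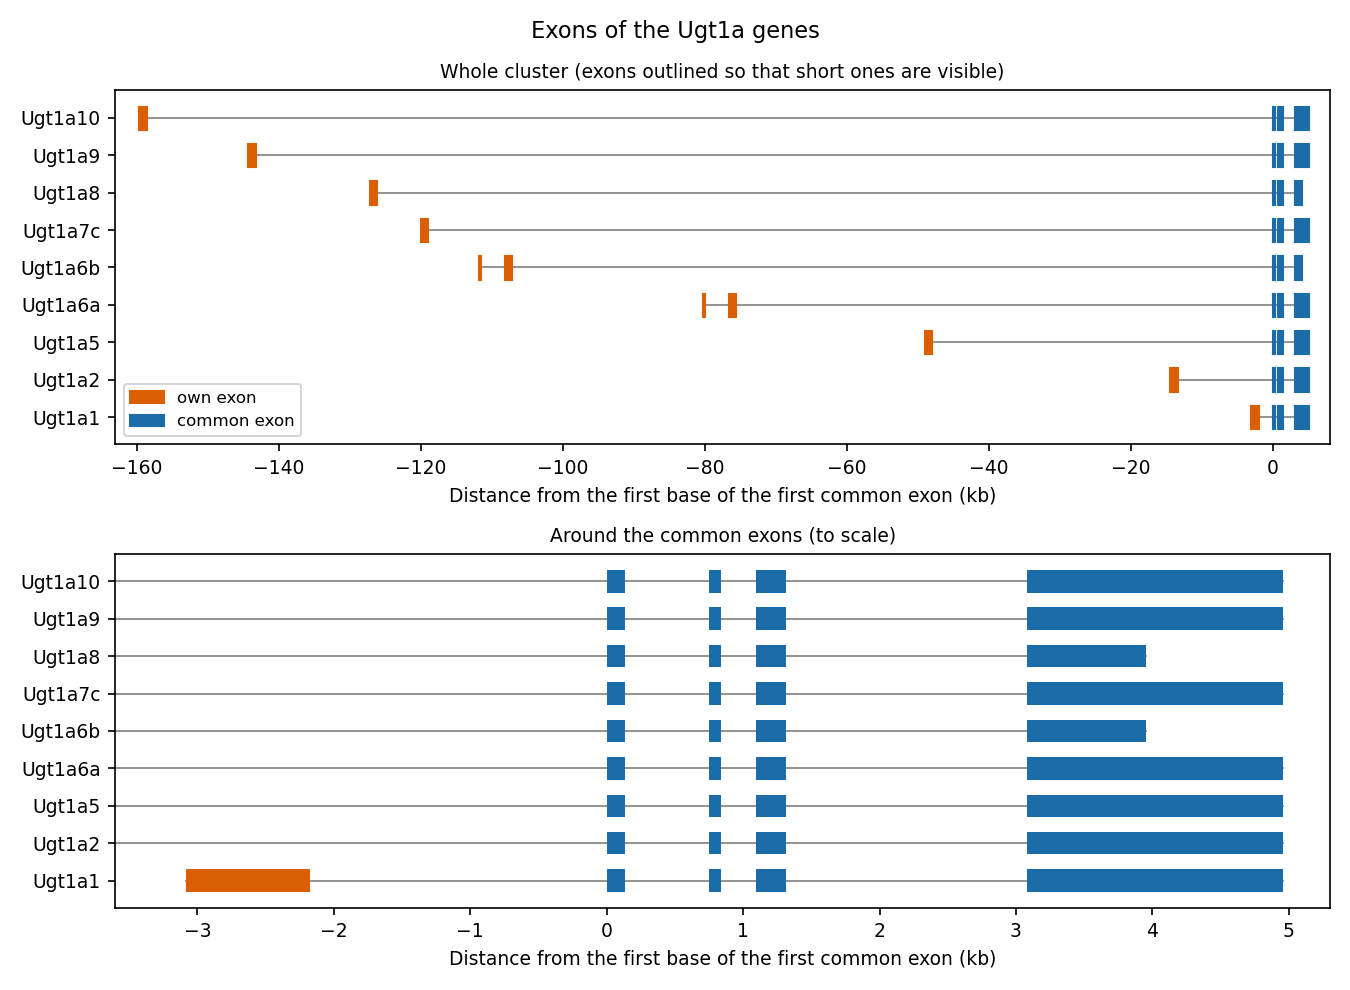
Exon positions of the 9 Ugt1a genes, with the distance in kb from the first base of the first common exon on the horizontal axis and own and common exons in different colours (upper panel, whole cluster; lower panel, the common exons). The own exons form a staircase from 159.633 kb to 3.085 kb upstream of the common exons, and the last exon is shorter in Ugt1a8 and Ugt1a6b.

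The own exons were 11 in all, 1 in each of 7 genes and 2 in Ugt1a6b and Ugt1a6a, and no own exon shared a base with an exon of another member. Ugt1a10 began with an exon of 926 bases (88055411 to 88056336), of which 855 were coding. The first exon of Ugt1a9 held 900 bases (88070779 to 88071678) with 849 coding. The first exon of Ugt1a8 held 894 bases (88087828 to 88088721) with 855 coding, and that of Ugt1a7c 978 bases (88095001 to 88095978) with 858 coding. These 4 genes form the upstream end of the cluster, and their first exons start within 39590 bases of each other.

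Ugt1a6b and Ugt1a6a, whose human relative UGT1A6 conjugates simple phenols, had another layout. Each started with a short exon without coding bases, of 122 bases in Ugt1a6b (88103257 to 88103378) and 127 bases in Ugt1a6a (88134809 to 88134935). The coding own exon followed after an intron and had 859 bases in both genes, at 88106941 to 88107799 in Ugt1a6b and 88138473 to 88139331 in Ugt1a6a. In both, only 1 base of that exon preceded the start codon, and 858 bases were coding. The intron between the own exons was 3562 bases long in Ugt1a6b and 3537 bases in Ugt1a6a.

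The 3 genes nearest to the common exons had single first exons again. Ugt1a5 had 892 bases (88166012 to 88166903) with 852 coding, and Ugt1a2 had 890 bases (88200611 to 88201500) with 864 coding. Ugt1a1, the bilirubin-conjugating enzyme, had 913 bases (88211959 to 88212871) with 870 coding, the most of the 9. Own coding sequence thus ranged from 849 to 870 bases, or 283 to 290 codons, and was a multiple of 3 in 9 of 9 genes, so that every coding own exon ends on a whole codon. The non-coding bases before the start codon ranged from 26 in Ugt1a2 to 128 in Ugt1a6a.

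Starts were unevenly spaced. The shortest distance between neighbouring starts was 7173 bases, between Ugt1a8 and Ugt1a7c, and the longest was 34599 bases, between Ugt1a5 and Ugt1a2. The intron from the last own exon to the common exons measured 158707 bases in Ugt1a10, 107244 bases in Ugt1a6b, 13543 bases in Ugt1a2 and 2172 bases in Ugt1a1. It took up 96.4% of the span of Ugt1a10 and 27.0% of that of Ugt1a1, with a median of 92.7% over the 9 genes.

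The common part held 4 exons in 4959 bases (88215044 to 88220002), which is 3.01% of the cluster. The first common exon (88215044 to 88215175) had 132 bases, the second (88215795 to 88215882) 88 bases and the third (88216138 to 88216357) 220 bases, and these 3 had identical ends in 9 of 9 genes. The introns between them were 619 and 255 bases long. After an intron of 1769 bases came the last exon, which started at 88218127 in all 9 genes but had 2 ends. It ran to 88220002 (1876 bases) in 7 genes and to 88218998 (872 bases) in Ugt1a8 and Ugt1a6b.

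The stop codon was the same in all 9, with its last base at 88218424, so that 298 bases of the last exon were coding. The 2 ends differ by 1004 bases, all of them in the 3' UTR. It had 1578 bases in 7 genes and 574 bases in Ugt1a8 and Ugt1a6b. Each end comes from the only row of its gene, so a shorter gene and a shorter record cannot be told apart. The common coding sequence summed to 738 bases, or 246 codons with the stop codon, and encodes the same 245 residues in every member. With the own codons the proteins had 528 residues in Ugt1a9, the shortest, a median of 531, and 535 residues in Ugt1a1, the longest.

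Most exonic bases of each gene were shared with other members. The share of exonic bases found in no other member was 28.6% in Ugt1a10 (926 of 3242 bases), 28.0% in Ugt1a9 (900 of 3216) and 28.3% in Ugt1a1 (913 of 3229). It was 29.7% in Ugt1a7c, 29.9% in Ugt1a6a, 27.8% in Ugt1a5 and 27.8% in Ugt1a2. Ugt1a8 had 40.5% (894 of 2206) and Ugt1a6b 42.8% (981 of 2293), and they stood apart from the other 7. Their own exons summed to 894 and 981 bases, within the range of 890 to 986 in the others, and their common part had 1312 bases against 2316. With the last exon of every member ended at the shorter end, the 9 shares lay between 40.4% and 42.9%. Over coding bases alone the shares were narrower still, from 53.5% in Ugt1a9 to 54.1% in Ugt1a1.

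**Figure D2:**
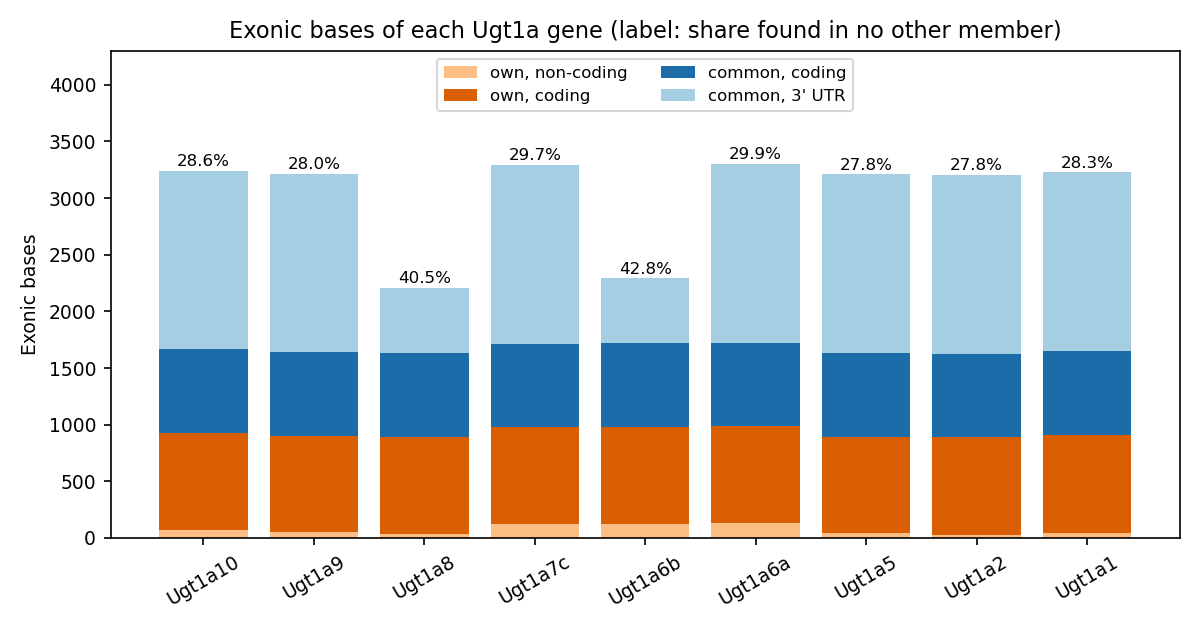
Stacked bars of exonic bases for each Ugt1a gene in order of position, divided into own non-coding, own coding, common coding and common 3' UTR bases, with the share found in no other member above each bar. The shares above 40% belong to Ugt1a8 and Ugt1a6b, whose 3' UTR bars are the short ones.

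Counted once, the exons of the cluster covered 10676 bases, or 6.49% of its length. Of these, 8360 bases (78.3%) lay in 1 gene, 1312 bases in all 9 and 1004 bases in 7. Summed gene by gene, the same exons came to 27196 bases, so that a base was counted 2.55 times on average. Of the 36 pairs of members, 22 had 4 identical exons and 14 had 3, and a pair shared 2316 exonic bases in 21 cases and 1312 in the other 15.

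Spans, introns included, overlapped more than exons did. In 8 of 9 genes, 100% of the span lay within spans of other members, and in Ugt1a10 it was 90.7%. The 15368 bases from the start of Ugt1a10 to the start of Ugt1a9 were the only part of the cluster covered by 1 gene. The number of spans over a base rose to 5 between the starts of Ugt1a6b and Ugt1a6a (31552 bases) and to 9 from the start of Ugt1a1 to the shorter end (7040 bases), and 70.9% of the cluster lay under 5 spans or more. On average a base lay under 5.18 spans. Ugt1a10 held all 8 others and Ugt1a9 held 7. In 27 of the 36 pairs 1 gene lay entirely inside the other. The other 9 pairs had Ugt1a8 or Ugt1a6b as the upstream gene, and the downstream gene ran 1004 bases past its end.

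**Figure D3:**
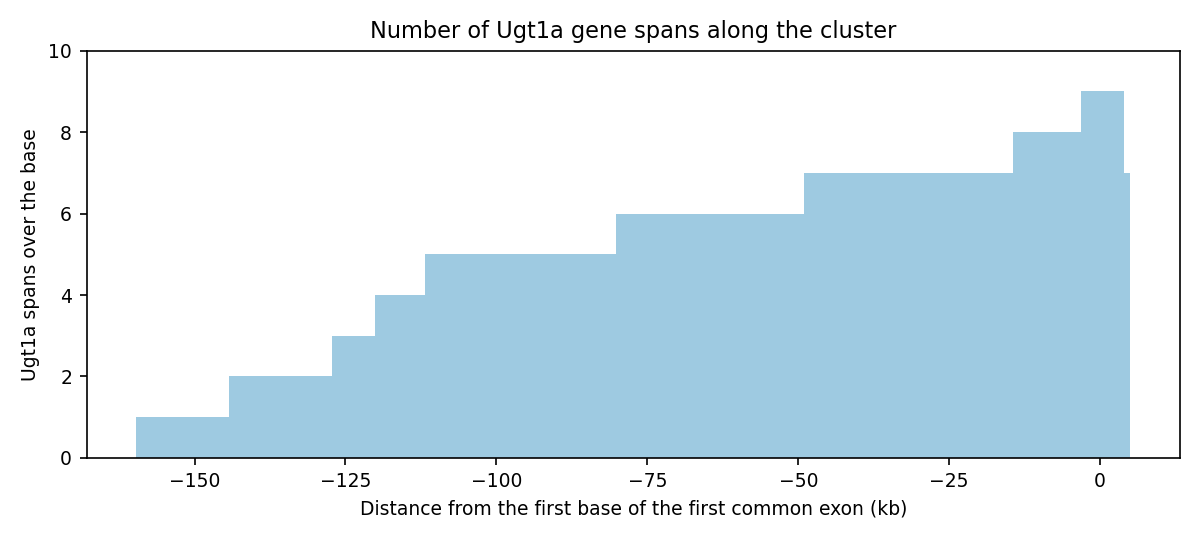
Number of Ugt1a gene spans (vertical axis) over each base of the cluster, against the distance in kb from the first base of the first common exon. The steps rise by 1 at each start, from 1 span at the upstream end to 9, and fall to 7 over the last 1004 bases.

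A single gene of another family lay inside the cluster. Dnajb3, a J-domain co-chaperone gene with 1 exon of 1017 bases on the minus strand (88204732 to 88205748), lay in the intron after the first exon of Ugt1a2, 6210 bases before the start of Ugt1a1. It was inside the spans of 8 members, all but Ugt1a1, and shared no base with any of their exons. The nearest genes outside were Usp40, a deubiquitinase gene on the minus strand 46859 bases upstream, and Mroh2a on the plus strand 7017 bases downstream.

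Sharing of this degree was rare in the annotation. On the assembled chromosomes 261 of 26127 genes (0.999%) had at least 50% of their exonic bases in exons of another symbol on the same strand, and 9 of 9 Ugt1a genes were among them, with shares from 57.2% to 72.2%. Over all genes the median share was 0%, and 97.5% of genes shared no exonic base on their strand. For coding bases the same threshold was passed by 61 of the 20992 genes with coding bases (0.291%) and by 0 of 9 Ugt1a genes, since the common codons make up less than 50% of each coding sequence. At least 50% of the span was shared with another symbol on the same strand in 4.95% of genes and in 9 of 9 Ugt1a genes. No Ugt1a gene shared its 5' start with another symbol (0.325% of all genes did), whereas 9 of 9 shared their 3' end (0.44% of all genes).

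**Figure D4:**
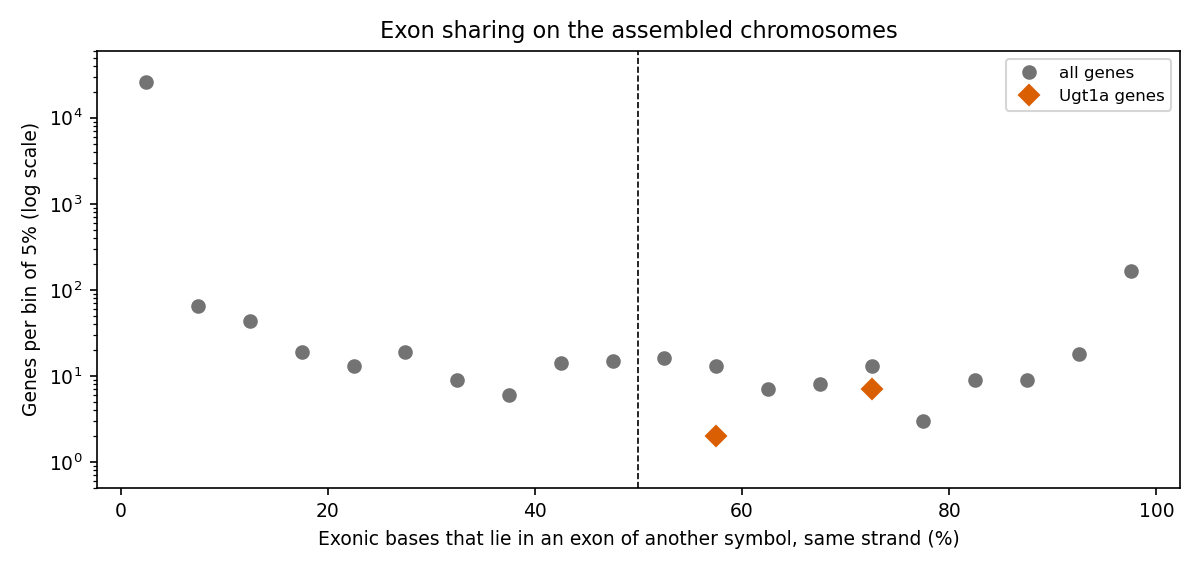
Number of genes on a log scale (vertical axis) by the share of their exonic bases that lies in an exon of another symbol on the same strand, in bins of 5% (horizontal axis), for all 26127 genes and for the 9 Ugt1a genes. The dashed line marks 50%, and the Ugt1a genes fall in 2 bins to the right of it, 2 genes at 55 to 60% and 7 genes at 70 to 75%.

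An exon with identical ends in another symbol was present in 203 of 26127 genes (0.777%), which formed 65 groups. The Ugt1a group of 9 symbols was the third in size. The larger groups were the gamma protocadherins with 25 symbols (3 of them Gm names) and the alpha protocadherins with 14, cell adhesion genes of neurons that also join own first exons to common last exons. In both protocadherin groups 2 exons were identical in every symbol, against 3 in Ugt1a. The median share of exonic bases in exons of another symbol was 45.1% for the gamma group, 54.4% for the alpha group and 71.4% for Ugt1a. The next group, Ipw, Snhg14, Snrpn and Snurf, had 4 symbols and no exon that all of them carried. A further 29 groups had 3 symbols each and 32 had 2.

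Of the 13 listed genes of other UDP-glycosyltransferases, 2 shared exonic bases with another symbol on the same strand, against 2.5% of all genes. Each of the 13 listed symbols had a row, and 2 of 13 had at least 50% of their exonic bases in exons of another symbol (0.999% of all genes), with a list median of 0% as over all genes. These were Ugt2a1, known from the olfactory epithelium, and Ugt2a2, both on chromosome 5. These 2 genes shared with each other and are not 2 separate cases. They had 4 identical exons, and 68.8% of the exonic bases of Ugt2a1 and 69.7% of those of Ugt2a2 were shared. Ugt2a3 and Ugt2b1, also on chromosome 5, shared 0 exonic bases with another symbol.

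The sizes of the common Ugt1a exons recurred in these genes. Exons of 132, 88 and 220 bases in this order were found in 19 symbols of 26125 on the assembled chromosomes, the 9 Ugt1a and 10 Ugt2 genes, a pattern that was looked for after the sizes were seen. All 10 Ugt2 symbols of the list had it, each gene on chromosome 5 with its own copy of the trio except the pair Ugt2a1 and Ugt2a2. In the 10 Ugt2 genes the coding bases before the trio numbered 867 to 879, against 849 to 870 in Ugt1a, but were divided between exons, with an exon of 149 bases directly before the trio in 10 of 10. From the trio to the stop codon Ugt2 genes had 717 to 735 coding bases and Ugt1a genes 738. An exon of 220 bases was present in all 13 symbols of the list, including Ugt3a1, Ugt3a2 and Ugt8a, which lacked the trio, and in 1.34% of all genes. Predicted protein lengths overlapped, at 528 to 534 residues in Ugt2 and 528 to 535 in Ugt1a. The Ugt2 genes spanned 9865 to 31382 bases. Of the Ugt1a genes, Ugt1a2 (19392 bases) fell in that range, Ugt1a1 below it and the other 7 above it.

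**Figure D5:**
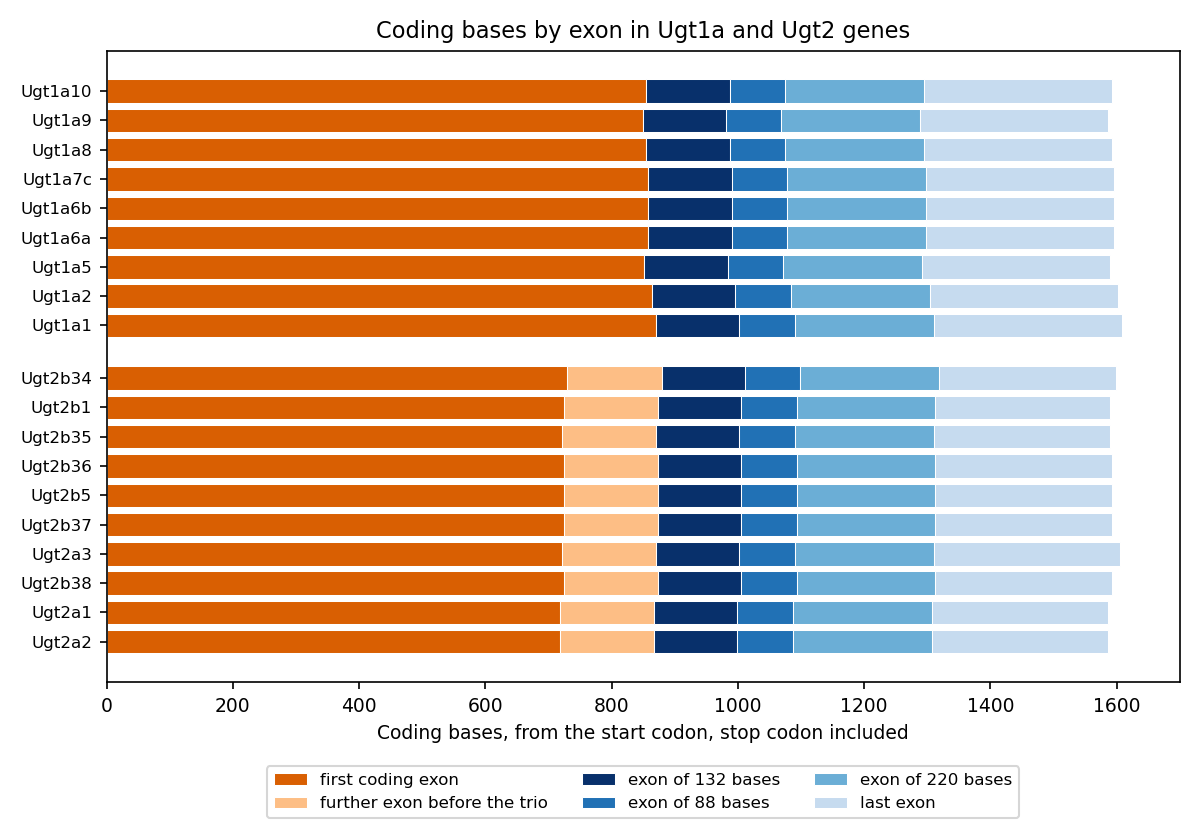
Coding bases of the 9 Ugt1a and 10 Ugt2 genes, drawn from start to stop codon on the horizontal axis and divided by exon. The exons of 132, 88 and 220 bases sit at nearly the same place in all 19 genes, and the part before them is 1 coding exon in Ugt1a and is split, with an exon of 149 bases, in Ugt2.

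Genes that make the sugar donor, handle bilirubin before and after conjugation or regulate these steps formed a second list. Each of the 15 listed symbols had a row, and 0 of 15 shared an exonic base with another symbol on the same strand. Among all genes 652 of 26127 (2.5%) did, so the count in the list is near that of the annotation as a whole. Ugp2 and Ugdh, which make UDP-glucose and oxidise it to UDP-glucuronic acid, spanned 50142 bases on chromosome 11 and 22622 bases on chromosome 5. Slc35d1, a carrier of UDP-glucuronic acid into the endoplasmic reticulum, spanned 44528 bases on chromosome 4. Gusb, the lysosomal enzyme that removes glucuronic acid, spanned 14039 bases on chromosome 5. In Ugt1a1, 71.7% of the exonic bases lay in exons of other symbols.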

How the data were processed

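The file analysed is the region annotation of the series in 12-column BED layout, with 50727 rows and no column of a library. The score column deposited by the authors was 0 in every row and was not used. The other numeric columns deposited by the authors are positions, exon numbers, sizes and starts in bases. The submitters' processing notes name mm10 as the build and list FastQC, Bowtie2, deepTools and bedtools without versions. What each tool was used for and the making of the annotation itself are not stated in the sources used here.

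Starts of gene rows are counted from 0 in the file and are printed here counted from 1. Exons of a symbol were merged per chromosome and strand, and 2 genes shared a base when exons of both covered it. A symbol with exons on 2 chromosomes or strands counts there as 2 genes, which gives 26127 genes for 26125 symbols. A gene was called sharing at 50% or more of its exonic bases. The routine was tested on simulated data with 200 names, where 0 differed from a base-by-base count. Residues were computed as coding bases divided by 3, less the stop codon. Promoter sequences and gene IDs come from RefSeq GRCm38.p6 tables. Python 3.11.15, pandas 2.3.3, networkx 3.6.1 and matplotlib 3.10.9 were used. Named genes are all Ugt1a symbols, symbols within and next to the cluster, the first 4 of each list and any list member sharing an exon, and the largest groups with identical exons, named down to those tied at 3 symbols. List members shown for their exon sizes were named after the sizes were seen. The members and lists were chosen with earlier results of these data known.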

Additional observations from a re-analysis of the deposited data

How the results depend on the processing

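No paired analysis was possible because the file analysed holds no value per library. The planned comparison of Pol I occupancy was not run for that reason. Fits with a replicate block or without each replicate were likewise not made. The counts of 9 symbols and 9 rows did not move with any contig accepted, with names matched in any case or with identical rows counted once, and the 9 symbols stayed in 1 group when any shared exonic base was accepted. The 3 common exons became 4 when 1 base shared by every member was enough, and stayed at 3 when an exon could be missing from 1 member. The median share of exonic bases unique to a gene, 28.6%, became 53.8% over coding bases and 41.0% with the last exon ended at the shorter end, an alternative added after seeing the data. It did not move when every symbol of the annotation was counted, on the same strand or on either strand. The median share of a span covered by other members fell from 100% to 5.92% when only their exons were counted. The 261 genes at the 50% threshold (0.999% of 26127) became 453 on either strand (1.73%). On all contigs except R they became 291, but of 28070 genes, so the share was 1.04%. Over coding bases they became 61, where only the 20992 genes with coding bases were counted. The 4 groups of at least 4 symbols became 8 when any shared exonic base was accepted. Read as counted from 1, 0 of 9 starts equalled the RefSeq start.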

Other observations

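The RefSeq table of GRCm38.p6 lists 6 pseudogenes within the Ugt1a cluster, of 796 to 930 bases, and 0 of 6 had a row in the annotation. None of the 9955 genes of that class in the table had one, so their absence is general. Gm38421 (88055411 to 88056340, 930 bases) starts at the first base of Ugt1a10 and covers its first exon of 926 bases. The other 5 share no base with a member's exon. Gm15372 (893 bases) lies between the starts of Ugt1a6b and Ugt1a6a, Gm15374 (844 bases) and Gm15371 (796 bases) between those of Ugt1a6a and Ugt1a5, and Gm15368 (849 bases) and Gm15376 (804 bases) between those of Ugt1a5 and Ugt1a2. These are the 3 longest gaps between neighbouring starts, at 31552, 31203 and 34599 bases. The pseudogenes are close in size to the own coding exons of the members, which have 859 to 978 bases, and whether they derive from such exons was not tested.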
